A study of Homo sapiens with 2 samples.

Results

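The 500 longest LDB1 peaks of NB4 cells were selected from a deposited list of 11046 by sorting on length, with ties ordered by peak number, and keeping the first 500. NB4 is a human acute promyelocytic leukemia cell line. Binding was mapped by CUT&Tag, in which an antibody tethers a transposase near its target so that the surrounding DNA is cut and tagged in place. The series held 2 libraries, 1 per group, with no replicates. The NB4-LDB1 library used an LDB1 antibody on cells labelled as LDB1 overexpression, and the NB4-IgG library used IgG on untreated cells. Antibody and treatment therefore cannot be told apart, no test between groups was made, and the peaks of the LDB1 library alone were analysed. The deposited columns used gave where each peak starts and ends and how long it is, without a height, q-value or summit, so the depth behind a peak is unknown. The cell line could not be checked against its markers, since the peaks hold no expression value.

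LDB1 does not bind DNA itself. It dimerizes and binds LMO2, which in turn bridges a GATA factor and a basic helix-loop-helix dimer of TAL1 or LYL1 with an E-protein. The joint site is a composite of an E-box remnant, CTG, and a GATA motif a short distance away. In red cell precursors this complex is known for its role at globin, heme and membrane genes and in joining distant enhancers to promoters.

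To show what lies inside the longest peaks, 160 bases around a composite are given for 6 of them: the 3 longest, those at NFE2 and GFI1B with 3 composites each, and the member with the most composites (HDAC4). The examples were chosen after their values were seen. The sequences are from hg38, plus strand, 5′ to 3′. Capitals mark the CTG and the GATA motif (AGATAA or AGATAG, or with T in first place TGATAA or TGATAG) of each composite, or their reverse complements, with 7 or 8 bases between.
PPP1R15A, chr19:48873613-48873772: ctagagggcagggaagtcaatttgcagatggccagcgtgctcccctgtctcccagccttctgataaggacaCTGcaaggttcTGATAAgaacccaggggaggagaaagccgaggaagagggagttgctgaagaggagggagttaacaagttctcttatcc
SLC4A1, chr17:44266637-44266796: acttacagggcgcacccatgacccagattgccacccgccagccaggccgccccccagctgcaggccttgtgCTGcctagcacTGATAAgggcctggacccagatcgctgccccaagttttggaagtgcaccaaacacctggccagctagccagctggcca
CYP11A1, chr15:74389648-74389807: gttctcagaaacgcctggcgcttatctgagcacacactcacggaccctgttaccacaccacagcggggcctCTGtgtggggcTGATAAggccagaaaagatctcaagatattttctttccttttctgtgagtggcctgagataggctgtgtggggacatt
NFE2, chr12:54295830-54295989: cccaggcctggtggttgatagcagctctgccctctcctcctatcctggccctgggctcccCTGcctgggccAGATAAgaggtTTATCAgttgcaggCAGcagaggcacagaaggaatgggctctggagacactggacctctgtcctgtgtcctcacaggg
GFI1B, chr9:133003022-133003181: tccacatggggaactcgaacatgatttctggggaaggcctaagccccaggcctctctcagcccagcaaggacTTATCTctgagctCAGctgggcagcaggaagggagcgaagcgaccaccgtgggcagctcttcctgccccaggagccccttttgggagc
HDAC4, chr2:239085875-239086034: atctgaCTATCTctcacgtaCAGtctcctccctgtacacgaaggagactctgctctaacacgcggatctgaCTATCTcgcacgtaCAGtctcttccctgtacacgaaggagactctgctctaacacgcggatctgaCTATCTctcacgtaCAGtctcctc
The PPP1R15A window lay in coding sequence of exon 2, those of SLC4A1, NFE2 and HDAC4 in introns, and that of GFI1B downstream of the gene. The CYP11A1 window was in LINC02255, a long noncoding RNA gene, and is labelled by the protein-coding gene with the nearest TSS (transcription start site). In NFE2, 2 composites faced each other, with their GATA motifs 5 bases apart. In HDAC4, the same composite recurred in a tandem repeat: 8 composites started within 646 bp of each other, at steps of 65 to 130 bp with a median of 65.

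The 500 peaks were 1388 to 4856 bp long with a median of 1734 bp and quartiles of 1537 and 2134 bp. The other 10546 peaks measured 229 to 1387 bp with a median of 437 bp. Length chose the members, so these values are a description. The members summed to 963320 bp, or 15.3% of all peak bases. There were 158 peaks of at least 2000 bp, 31 of at least 3000 bp and 8 of at least 4000 bp. No step in length marked the limit. The last 3 members were 1391 bp in IKZF1, 1390 bp in GAPVD1 and 1388 bp near SLC2A1. The next 3 peaks measured 1387 bp in SNAP29, 1386 bp in P3R3URF-PIK3R3 and 1386 bp in TMEM120A.

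**Figure D1:**
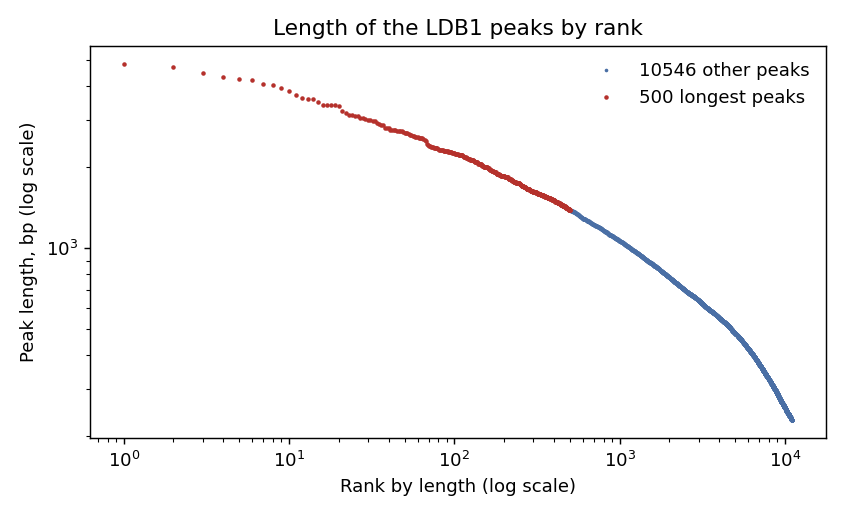
Length of each LDB1 peak in bp (log scale) against its rank by length (log scale), 1 point per peak. Lengths declined smoothly from 4856 bp at rank 1 through 1388 bp at rank 500 to 229 bp, with no gap between the members (red) and the other peaks (blue).

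The longest peak, 4856 bp at chr19:48872056-48876911, began 365 bp before the TSS of PPP1R15A and ran 4490 bp past it. PPP1R15A is the phosphatase subunit that reverses the block on translation in the integrated stress response. This peak held 10 GATA motifs and 1 composite, and another member of 2317 bp lay downstream of the gene. The peak of rank 2, 4718 bp at chr17:44265279-44269996, spanned the TSS of SLC4A1, which encodes band 3, the anion exchanger of the red cell membrane. It covered 1861 bp upstream and 2856 bp downstream of the TSS. The peak of rank 3 measured 4469 bp and lay 23660 bp upstream of the TSS of CYP11A1, whose product starts steroid hormone synthesis. That of rank 4, 4348 bp, was intergenic near SIGLEC6, a sialic acid-binding receptor gene.

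Of the next longest peaks, those in or nearest to genes of blood transcription factors or their cofactors were at ranks 5, 7, 8 and 13. In the gene of NFE2, a factor of red cell and platelet genes, the peak of rank 5 was 4273 bp long and held 3 composites and 7 GATA motifs. The central 31 bases of this peak occurred 1098 times in hg38, and 16.5% of its sampled sequences were repeated. The peak of rank 6, 4233 bp, was near PDZK1IP1 and 31984 bp from TAL1, the neighbouring gene and the DNA-binding partner of LMO2. TAL1 had 5 peaks of its own, the longest 804 bp. Ranks 7 and 8, of 4088 and 4060 bp, were both in intron 3 of ZFPM1, which encodes FOG1, the cofactor of GATA1. The peak of rank 13, 3606 bp, was intergenic, 24937 bp downstream of the TSS of GFI1B, and held 3 composites. GFI1B is a transcriptional repressor that acts in red cell and platelet precursors.

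The others among the 20 longest were at genes of mixed function. They lay in HSPG2 (basement membrane perlecan), USP20 (a deubiquitinase), GSE1, PXN (the adhesion adaptor paxillin), SMCO1, PTTG1IP, SLC7A5 (a transporter of large neutral amino acids) and ZMIZ1 (a transcriptional coactivator). Outside genes, the nearest coding TSS belonged to SLC25A37 (the mitochondrial iron importer mitoferrin), RNF187 and CHST2 (a sulfotransferase). Repeated sequence made up 52.9% of the sampled sequences at CHST2 and 41.7% at SMCO1, so part of these peaks cannot be placed uniquely with certainty. Of the 20 longest peaks, 6 held no composite, but each held at least 2 GATA motifs.

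**Figure D2:**
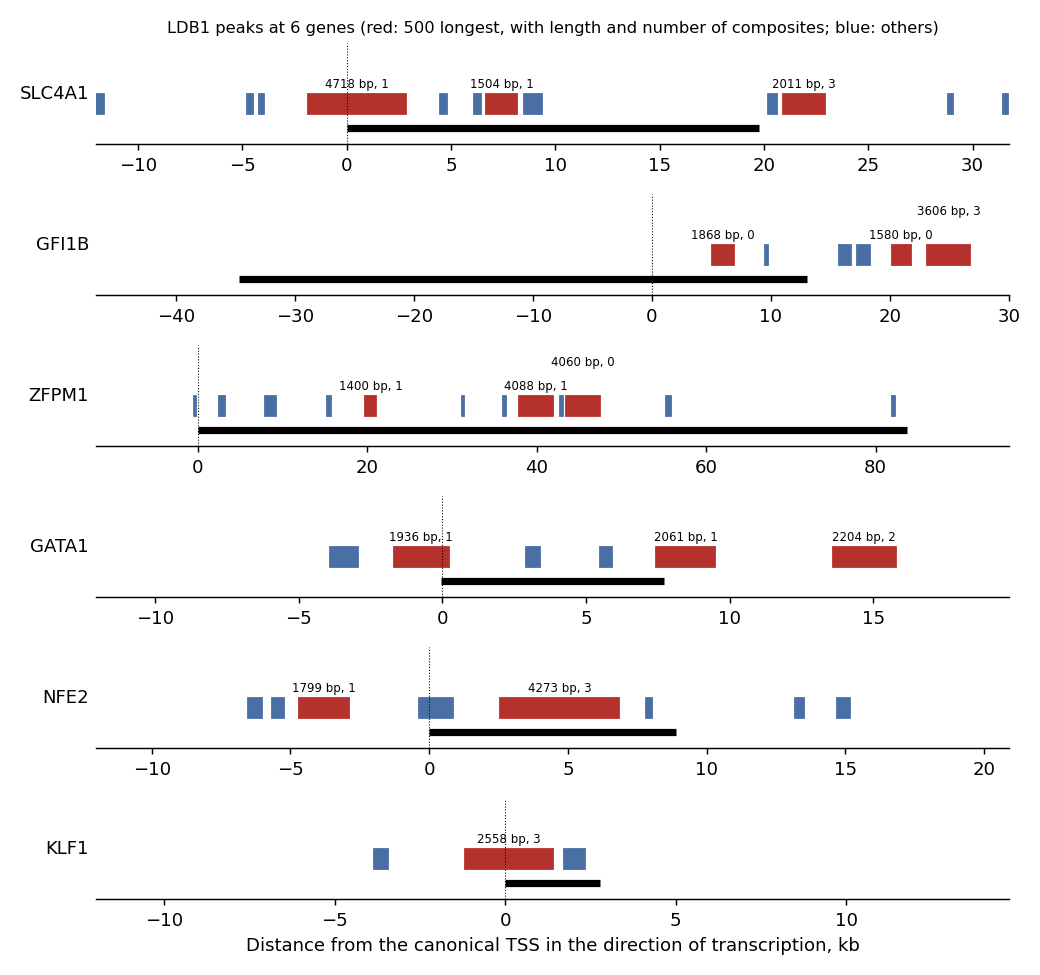
LDB1 peaks at SLC4A1, GFI1B, ZFPM1, GATA1, NFE2 and KLF1, chosen after their values were seen, by distance in kb from the canonical TSS in the direction of transcription. Black bars are the genes, red boxes are members with their length and number of composites, and blue boxes are other peaks. Members covered the TSS of SLC4A1, GATA1 and KLF1, and lay inside or outside GFI1B, ZFPM1 and NFE2 without covering the TSS.

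To relate the longest peaks to gene function, genes with a member in the gene or within 3 kb were counted. Of 20033 protein-coding genes, 349 had a member (1.74%), 3947 had any peak (19.7%) and 149 had the midpoint of a member within 3 kb of a TSS (0.744%). The gene lists below were chosen with earlier results of these data known, so their counts are descriptions, and intervals are Wilson 95% intervals that cover counting error only. Long genes have more room for a peak, and this was not adjusted for.

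Genes of the red cell membrane and skeleton had the highest share, 9 of 22 (40.9%, interval 23.3 to 61.3%), and 21 of the 22 had any peak. Those with a member were SLC4A1, SPTB and ANK1 (beta spectrin and ankyrin, which tie the skeleton to band 3), EPB41 and DMTN (proteins of the skeleton junctions), GYPC (glycophorin C), the Rh antigen genes RHCE and RHD, and SLC2A1 (the glucose transporter GLUT1). At SPTB the member of 1847 bp was almost centred on the TSS, with 887 bp upstream and 959 bp downstream. At ANK1 the member of 1762 bp reached 1459 bp upstream and 302 bp downstream. RHCE and RHD are near-identical copies of each other: 76.4% of the sampled sequences of the RHCE member (2733 bp) and 66.0% of the RHD member (2501 bp) were repeated, so their reads could not be split between the genes with certainty.

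Genes of heme synthesis and iron had a member at 5 of 21 (23.8%, interval 10.6 to 45.1%), and each of the 5 was near a TSS. TFR2, the iron-sensing transferrin receptor, had a member of 3004 bp with 1478 bp upstream and 1525 bp downstream of its TSS. BLVRB, a biliverdin reductase, had a member of 2636 bp that was its sole peak. PPOX, the enzyme before the last step of heme synthesis, had a member of 1410 bp with a composite in its central 200 bp. SLC25A37 had a member of 1405 bp at its TSS besides the longer one 19871 bp upstream.

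Globin genes had a member at 3 of 10. The member of 1438 bp within the annotated bodies of HBE1 and HBG2 was 1 peak counted for both genes, 17931 bp upstream of the canonical TSS of HBE1 on the side of the locus control region. On chromosome 16, members of 2586 and 2635 bp lay in introns 5 and 3 of NPRL3, the gene whose introns hold the distal enhancers of the alpha-globin genes. Each held 1 composite, in its central 200 bp. A member of 1739 bp lay 9455 bp upstream of the canonical TSS of HBZ, the embryonic zeta-globin gene.

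The LDB1 complex and its partners had a member at 5 of 21 genes (23.8%). GATA1, the GATA factor of red cells, had 2 members of 1936 and 2061 bp. The former covered its TSS, with 1701 bp upstream and 234 bp downstream. LYL1 and CBFA2T3 (the corepressor ETO2) had members of 1856 and 1854 bp across their TSS. RUNX1, the partner of CBFB, had a member of 1742 bp in intron 2 with 10 GATA motifs. ZFPM1 had 3 members among 12 peaks. LDB1 itself had 1 peak of 1253 bp, under the length of the members, and LMO2 had 5 peaks of up to 643 bp.

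Among 25 genes of blood transcription factors, 5 had a member (20%, interval 8.86 to 39.1%). These were NFE2, GFI1B, KLF1 (the red cell factor of the beta-globin promoter), CEBPE (a factor of late granulocyte maturation) and IKZF1 (Ikaros). The KLF1 member, 2558 bp, reached 1168 bp upstream and 1389 bp downstream of the TSS and held 3 composites and 9 GATA motifs. The CEBPE member, 3034 bp, was intergenic, 6651 bp downstream of the TSS, with 2 composites and 9 GATA motifs.

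Each of the remaining lists had at most 2 genes with a member. Except for lymphocyte genes, their shares (4.55 to 8.33%, each from 1 or 2 genes) were above the 1.74% of all protein-coding genes. For the lists with 1 gene the interval held 1.74%, with lower bounds of 0.807 to 0.888%. For stress and immediate early genes the lower bound was 2.32%. Granulocyte granule and receptor genes had 1 of 22, at FPR1 (a formyl peptide receptor), with a member of 1934 bp that also lies in an intron of FPR3. Megakaryocyte and platelet genes had 1 of 20, GP1BB, part of the von Willebrand factor receptor. Mast cell, basophil and eosinophil genes had 1 of 21, HDC, which makes histamine. Liver genes had 1 of 21, TF (transferrin), and lymphocyte genes had 0 of 22 (upper bound 14.9%). Stress and immediate early genes had 2 of 24, PPP1R15A and BTG2, an antiproliferative gene. With lists of about 20 genes the interval of each of these shares reached above 14%.

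**Figure D3:**
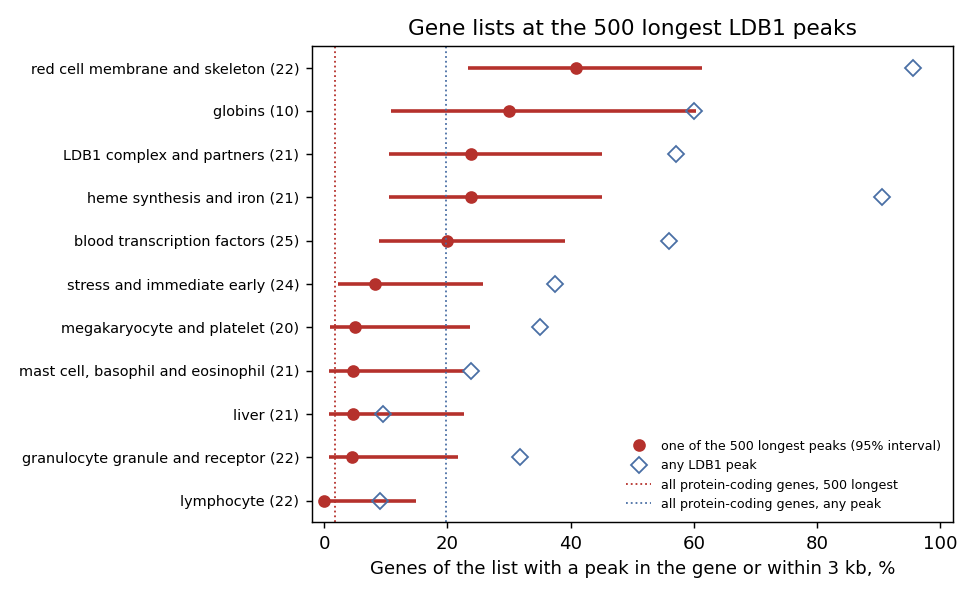
Share of the genes of each list with a peak in the gene or within 3 kb, in percent, with the number of genes in brackets. Red points with Wilson 95% intervals count the 500 longest peaks, blue diamonds count any peak, and dotted lines give the same shares over all protein-coding genes (1.74% and 19.7%). Red cell membrane genes had the highest share (40.9%) and lymphocyte genes had none.

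2 lists of the study were also counted, both drawn up by the study with LDB1 data, so they are no independent evidence. Of 1006 matched genes in its overlap of binding and RNA-seq genes, 99 had a member (9.84%, interval 8.15 to 11.8%) and 669 had any peak. Of 17 matched candidate targets, 2 had a member, FAM117A and LYL1, and 12 had any peak.

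Some genes had several members. Of the 349 genes, 38 had at least 2 and 5 had at least 3: GSE1 with 7 of its 50 peaks, ASIC4 with 4 of 6, ZFPM1 with 3 of 12, SLC4A1 with 3 of 7 and USP20 with 3 of 12. GSE1 is a long gene and all 7 members lay upstream of its canonical TSS, within longer annotated transcripts. ASIC4 encodes an acid-sensing channel subunit, and 1 of its members was in the neighbouring gene GMPPA. At no protein-coding gene lay 169 members.

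Members lay closer to other peaks than the remaining peaks did. Another peak was within 10 kb, edge to edge, for 375 members (75%), against 52% of the others and 53.1% of all peaks. The difference of 23 percentage points had a Newcombe 95% interval of 18.9 to 26.7. Against the 500 next longest peaks, of which 69.4% had such a neighbour, it was 5.6 points (0.0452 to 11.1). Another peak was within 1 kb for 211 members (42.2%), against 21.5% of the others and 22.5% of all peaks, a difference of 20.7 points (interval 16.3 to 25.1). Against all other peaks, both passed an interval widened to 99.76% for the 21 differences of shares computed. The median gap to the nearest peak was 1545 bp (interval 1211 to 1984) for members and 8648 bp (8154 to 9223) for the others. The smallest gap was 230 bp in both groups. Length and gap both come from how the caller joins or splits enriched stretches, and the part of that step was not tested.

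Distances between members were counted without a matching count for other peaks, so they are a description. Within 10 kb of another member lay 76 of the 500, within 50 kb 147 (29.4%) and within 100 kb 171. With gaps of up to 50 kb, 51 members formed 15 groups of at least 3. The groups with most members were 5 in GSE1 over 45835 bp and 5 at KCNH2, NOS3 and ABCB8 over 85068 bp. Groups of 4 lay at CBFA2T3 (28775 bp, with 3 composites) and at GMPPA and ASIC4 (18107 bp). Groups of 3 lay at SLC4A1 (24804 bp, 5 composites), ZFPM1, GFI1B, USP20, NPRL3 with HBZ, and GATA1 with HDAC6 (17487 bp, 4 composites), among others.

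Position relative to genes was compared next. The midpoint lay within 3 kb of a TSS for 201 members (40.2%) and 35.4% of the others (35.6% of all peaks). This difference of 4.83 points (interval 0.525 to 9.28) did not pass the widened interval, and against the 500 next longest peaks it was -0.6 points. With a TSS window of 1 kb it was 7.36 points (3.61 to 11.5), and for a TSS inside the peak or within 3 kb of its edges, a stretch that grows with peak length, it was 9.36 points (4.94 to 13.8). Of the rest, 34.4% of members were in introns (36.6% of all peaks), 3.4% in exons (2.64%) and 22% between genes (25.2%), and each difference had an interval that held 0. Over 50 kb from a TSS lay 13 members (2.6%, against 4.33% of all peaks). For 134 of the 201 members near a TSS the nearest one was that of a protein-coding gene, and for 49 that of a long noncoding RNA. These types were not set against those of other peaks.

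A canonical TSS of a protein-coding gene was inside 36 members, and 131 covered an annotated TSS of any transcript. Both counts grow with peak length, which chose the members. Exactly 1 canonical TSS was covered by 34 members and by 263 of the 10546 others. Of these, 19 members (55.9%) had more bases downstream than upstream, against 44.5% of the others. The difference of 11.4 points had an interval of -6.11 to 27.7, which held 0. Peaks with most of their length before the TSS were at GATA1, HDAC6 (1895 bp upstream) and TMC8 (1913 bp), and peaks with most of it after were at PPP1R15A, SPHK1 (1766 bp downstream) and EZH1 (1664 bp). Coding sequence made up 2.71% of the bases of members and 2.35% of those of the others.

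By chromosome, members made up 4.53% of all peaks. This share was above the whole on chromosomes 16 (25 members, 6.65%), 19 (39 members, 6.98%, interval 5.15 to 9.4%) and 21 (10 members, 9.35%), and below it on X (5 members, 1.91%). With 23 chromosomes compared and no adjustment, these 4 are a description. Chromosome 19 had the densest members, 0.667 per Mb.

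To compare sequence in windows of equal size, motifs were counted on both strands in the central 200 bp of each peak. A GATA motif was there in 184 members (36.8%), against 47.6% of the others and 47.1% of all peaks. The difference of -10.8 points (interval -15 to -6.37) passed the widened interval. An AP-1 motif (TGACTCA or TGAGTCA), bound by JUN and FOS dimers, was there in 24 members (4.8%), against 9.7% of the others and 9.48% of all peaks, a difference of -4.9 points (-6.56 to -2.59) that also passed. Against the 500 next longest peaks the GATA difference was -7.2 points (-13.2 to -1.12) and the AP-1 difference was -0.8 points (-3.64 to 2.01). The composite was in the centre of 46 members (9.2%), against 11.2% of the others and 11.1% of all peaks, a difference of -2.03 points whose interval (-4.34 to 0.887) held 0. Among the others these shares rose and then fell as length decreased. In peaks of 1065 to 1387 bp they were 44% for GATA, 11.8% for the composite and 5.6% for AP-1. In those of 483 to 780 bp they were 59.1, 17.2 and 12.4%. In the 6046 shortest peaks, of 229 to 483 bp, they were 41.9, 7.86 and 8.91%. These shares by length have no intervals and are a description.

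No other motif had a difference past its 95% interval. The E-box of TAL1 (CAGATG or CAGCTG) was central in 33% of members (33.8% of all peaks), the RUNX motif (TGCGGT or TGTGGT) in 19.2% (20.5%), and the ETS motif (CAGGAAG or CCGGAAG) in 10.2% (11.9%). The PU.1 motif (GAGGAAGT) was central in 1.4% of members (1.63% of all peaks), the KLF motif (CCNCACCC) in 13.8% (13.6%), and the CEBP motif (TTGCNNAA) in 7.6% (7.44%). The NFE2 motif (GCTGAGTCA), which holds an AP-1 motif, was central in 1.6% (1.4%), the ATF4 motif (TGATGCAA) in 0.4% (0.534%) and the CTCF core in 0 of 500 (upper bound 0.762%, against 0.308% of all peaks).

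**Figure D4:**
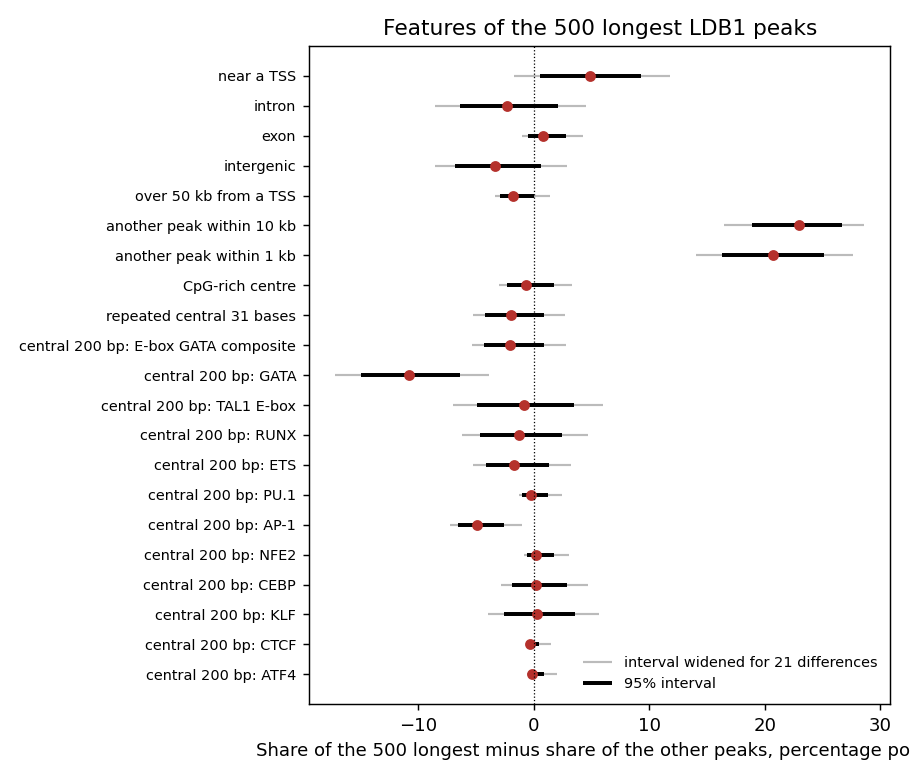
Share of the 500 longest peaks minus share of the 10546 other peaks for 21 features, in percentage points, with Newcombe 95% intervals (black) and intervals widened for 21 differences (grey). The intervals of another peak within 10 kb and 1 kb lie above 0, and those of GATA and AP-1 motifs in the central 200 bp lie below 0.

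The midpoint stood in for the missing summit, and in a long peak the summit can lie further from it. Over the whole peak, 262 members (52.4%) held a composite and 494 (98.8%) a GATA motif. Such counts grow with peak length, which chose the members, and were not set against other peaks, so they are a description. The composite was only outside the central 200 bp in 216 of the 262. There were 206 members with 1 composite, 48 with 2 and 8 with 3 or more. The most were in HDAC4 intron 19 (8 composites and 14 GATA motifs), in the tandem repeat printed above, which also holds the hairpin of MIR4441. A member 337029 bp from the TSS of CWH43 had 4, with 79.5% of its sampled sequences repeated. Besides NFE2, GFI1B, KLF1 and HDC, 3 composites each were found downstream of SLC4A1 and near MYBPHL.

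Per kb of peak, members held fewer composites and fewer GATA, AP-1, RUNX and NFE2 motifs than the others. Peak length chose the members and is also the denominator of this density, and the part of length in these ratios was not tested. Against the next longest peaks alone, the ratio was 0.864 (0.73 to 1.02) for the composite and 0.849 (0.793 to 0.909) for GATA. For AP-1 it was 0.95 (0.783 to 1.15) and for RUNX 0.975 (0.881 to 1.08). The ratios that follow are against all other peaks. There were 0.345 composites per kb in members and 0.447 in the others, a ratio of 0.77 (exact binomial interval 0.685 to 0.865). GATA motifs gave 2.06 and 2.75 per kb, a ratio of 0.749 (0.714 to 0.785). AP-1 gave a ratio of 0.681 (0.598 to 0.772), RUNX 0.878 (0.82 to 0.939) and NFE2 0.603 (0.415 to 0.852). The ratio was 1.02 for the E-box of TAL1 and 0.988 for ETS, with intervals that held 1, and 1.09 (1.01 to 1.18) for KLF.

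Against 1 kb on either side, with bases of any peak left out, the composite was the motif with the highest ratio. Members had 0.345 composites per kb inside and 0.0531 outside, a ratio of 6.5 (4.79 to 8.99), and the others had a ratio of 5.13 (4.82 to 5.46). In members the ratio was 4.23 for NFE2 (1.93 to 10.5, from 8 sites outside), 1.77 for AP-1, 1.46 for GATA, 1.39 for KLF, 1.37 for the E-box and 1.24 for ETS. It was 1.02 (0.931 to 1.12) for RUNX and 0.939 (0.809 to 1.09) for CEBP. In the others the ratio was 3.09 for NFE2, 2.15 for AP-1, 1.6 for KLF and 1.49 for the E-box. There it was 1.46 for ETS, 1.45 (1.43 to 1.48) for GATA, 1.26 for RUNX and 0.819 for CEBP. For GATA the flanks too were lower in members, with 1.41 motifs per kb against 1.89 in the flanks of the others. Of 332 composites in members, 170 (51.2%, interval 45.8 to 56.5%) were in the middle segment when each peak was cut in 3 equal segments, as were 42% of the GATA motifs.

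**Figure D5:**
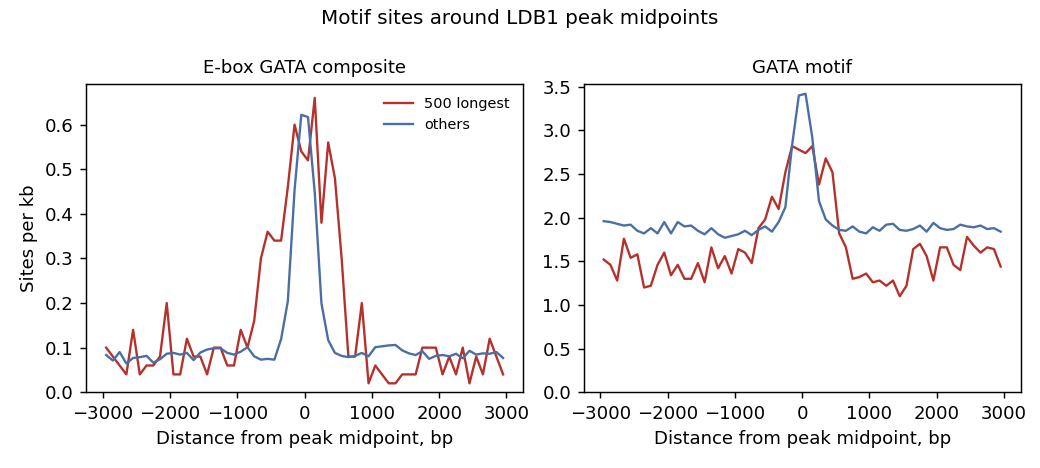
Sites per kb of the composite and of the GATA motif in steps of 100 bp by distance from the peak midpoint in bp, for the 500 longest peaks (red) and the others (blue), without error bars. Composites were still at 0.3 to 0.36 per kb around 550 bp from the midpoint of members and near 0.08 at that distance in the others. Members are at least 1388 bp long and the others have a median of 437 bp. That distance is therefore inside each member and outside most others, so length fixes this contrast. The GATA motif reached 3.42 per kb in the centre of the others. In members it was 2.78 and 2.74 in the central steps and 2.82 around 150 bp on either side.

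Members were somewhat richer in G and C than the others. The median GC content of the central 200 bp was 53.8% (interval 53 to 55) in members and 51.5% in the others. The centre was CpG-rich in 5.2% of members and 5.82% of all peaks. Of 1896 sequences of 6 bases, CCCGGG had the highest ratio of density in members over the others, 1.63 (1.46 to 1.82), and ATAAGA the lowest, 0.634 (0.565 to 0.711). AGATAA had a ratio of 0.678. Of the 10 highest, 9 held CG, and the 10 lowest all had at most 2 bases of G or C. In peaks of under 50% GC the GATA difference was -10.5 points (-18.6 to -2.34), and in those of 50% or more it was -7.64 points (-12.4 to -2.49). The AP-1 difference was -7.11 and -3.78 points in the same classes, and each interval lay below 0. This split was chosen after seeing the data.

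Centres of repeated sequence, where the middle 31 bases had further copies in hg38, were found in 44 members (8.8%), against 10.7% of all peaks, and over 100 times for 18 of them. Of sequences sampled each 50 bp, 9.08% were repeated in members and 11.2% in the others. None were repeated in 248 members, and over 50% were in 18.

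Within the 500, the share with another peak within 10 kb was 85.6% in the longest 125, then 77.6%, 72.8% and 64% in the shortest 125. The intervals of the first (78.4 to 90.7%) and last (55.3 to 71.9%) did not overlap. At 69.4%, the 500 next longest peaks were above the share of the last. The share near a TSS was 40.8, 42.4, 39.2 and 38.4% in the same order, and the share with a central GATA motif 30.4, 41.6, 34.4 and 40.8%, with intervals that overlapped. Members near a TSS and away from it both had a central GATA motif in 36.8%. CpG-rich centres were in 10.9% of members near a TSS and 1.34% of those away, a difference of 9.61 points (5.46 to 14.7) that passed the interval widened in the same way. For the KLF motif (18.4 and 10.7%) and the CEBP motif (4.48 and 9.7%) the difference passed the 95% interval alone. The hairpin of MIR182, a microRNA of the cluster with MIR183, lay in a member of 2243 bp, and with MIR4441 these were 2 of 1562 hairpins. Another 9 of the 1562 lay in other peaks, and these counts are a description.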

How the data were processed

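CUT&Tag libraries of NB4 cells (1 with LDB1 antibody, 1 with IgG) were sequenced by the authors. The submitters' processing notes name Bowtie2 2.4.4, MACS3 3.0 and the hg38 build, for alignment and peak calling per the study's methods. Use of IgG as the control and filters on duplicates or repeats are not given in the sources used here. What the authors deposited was a list of peaks with both ends and the length in bp. Heights were not analysed here and depth is unknown, so intervals cover counting error only, and neighbouring peaks are not independent.

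Peaks were ranked by length. Genes and TSS were from GENCODE release 44, with 3 kb around genes and TSS. A CpG-rich centre had over 50% GC and an observed to expected CpG ratio of over 0.6. Copies of 31-base sequences were counted in hg38 on both strands. Shares were compared by Newcombe intervals, densities by exact conditional binomial intervals and medians by order statistics. No p-values were computed. The midpoint replaced the summit. The reference was in upper case, so soft-masked repeats were not counted. The counting was tested on simulated data. Software was SciPy 1.17.1, numpy 2.4.6, numba 0.67.0, pandas 2.3.3 and matplotlib 3.10.9 in Python 3.11.15.

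Genes named were those at the 20 longest peaks, those with the most members, list genes with a member, peaks at the limit of 500 and those with the most composites. TSS examples and the plotted loci were added after values were seen. The members and lists were chosen with earlier results of these data known. Alternatives were 250 or 1000 peaks, the 500 next longest as comparison, other windows, unique centres and peaks near or away from a TSS. A split by GC content was added after seeing the data. A gene of the heme list and the sequence of a further window are not reported here.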

Additional observations from a re-analysis of the deposited data

How the results depend on the processing

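Of 98 alternative settings over 13 results, 68 kept direction and side of the interval. The neighbour difference and the GATA density ratio did so under each setting run, but against the 500 next longest peaks the former fell from 23 to 5.6 points (0.0452 to 11.1), and within 50 kb it was 13.9. No paired analysis was possible because there was a single library per group. Against the 500 next longest peaks, the TSS difference turned to -0.6 points and the RUNX share difference to 2.2, while AP-1 fell short of its interval (-0.8 points, density ratio 0.95), as did the density ratios of the composite (0.864) and RUNX (0.975). The TSS difference was 3.7 points with unique centres, no longer past its interval, 7.36 with a TSS window of 1 kb and 9.36 from the peak edges. The composite share difference was -2.19 points in 100 bp, 0.554 in 400 bp, 1.47 near a TSS, -4.22 away, -7.67 under 50% GC and 1.13 at 50% or more. Its interval lay below 0 in 100 bp, away from a TSS and under 50% GC, unlike in the comparison reported. Near a TSS, GATA (-5.6 points) and the density ratios of the composite (0.889) and RUNX (0.897) lost their call, and the RUNX share turned to 2.02, as it did to 0.183 under 50% GC. The ETS share was 0.145 points with 1000 peaks, 1.24 in 100 bp, 0.542 in 400 bp, 0.993 near a TSS, 1.73 under 50% GC and -3.89 at 50% or more, where its interval lay below 0. The ETS density ratio was 1.03 with 250 peaks, 1.01 with 1000 and 1 away from a TSS. Genes with a member numbered 149 with the narrower window of 3 kb around a TSS, and, with other numbers of peaks counted, 184 for 250 peaks and 640 for 1000. The cause of the changes was not tested. The unknown depth and the missing summit limit each value, and a single library gives no replicate check.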
